A study of Mus musculus with 38 samples.

Results

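The genes of cholesterol synthesis, uptake and control by SREBP2 were examined in the hypothalamus of 2 mouse models of Huntington's disease. The list holds 30 genes, chosen by name and not by any measured value, of which 28 have a probe set that carries 1 gene symbol, out of 19937 symbols measured in this way. Acat2 had no such probe set and Mbtps2 shares its probe set with another symbol, so both were not analysed here. For genes with more than 1 probe set, the brightest on average was read. The study hybridised RNA of 38 mice to Affymetrix Mouse Gene ST arrays, with 1 array per mouse, and all mice were female and of the FVB/N background. 5 mice (18Q) and 8 mice (79Q) had received rAAV5 into the hypothalamus on both sides at 8 weeks of age. The vector encoded the first 853 amino acids of HTT with 18 or 79 CAG repeats (AAV-HTT853-18Q and AAV-HTT853-79Q), driven by the human Synapsin promoter, which is active in neurons. The 5 WT controls of that experiment were uninjected wild-type mice, and all 18 mice were killed at 12 weeks of age, 4 weeks after the injections. No group received a vector without HTT, so injection, virus and HTT fragment cannot be told apart when injected mice are compared with WT. BACHD mice, which carry full-length human HTT with 97 CAG repeats in all tissues, were compared with wild-type mice at 2 months (6 and 6 mice) and at 10 months (5 and 3 mice).

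Values are log2 intensities from Robust Multi-Array Averaging (RMA), and the AAV, 2 months and 10 months arrays were treated as normalized separately, so levels were compared only within these sets. Any pair of arrays in a set correlated at 0.9848 or above. Hypothalamic peptide genes such as Avp, Oxt, Hcrt and Pmch, as a list of 10, had a mean log2 intensity of 10.08 to 11.22 per mouse in the AAV arrays, where the median probe set of an array lay between 7.38 and 7.46. At 2 months the 7 thalamic marker genes ranged from 8.86 to 10.81 per mouse in BACHD and from 9.07 to 10.85 in WT, and the 5 pituitary genes from 6.50 to 9.73 and from 6.81 to 11.03. These markers of neighbouring tissue thus varied widely in both genotypes. Among the AAV mice, WT control replicate 5 had the highest mean level of the 18 measured synthesis enzymes (9.68) and 18Q replicate 4 the lowest (9.26). 18Q replicate 3 and 79Q replicates 6, 7 and 8 had thalamic marker means of 9.75, 9.64, 9.48 and 9.59, above the highest WT mouse at 9.40. 18Q replicate 3 also had the lowest mean of the peptide genes (10.08) and the highest of the oligodendrocyte genes (11.32). Counts of calls are given with and without these mice.

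The brain makes its own cholesterol, since lipoprotein cholesterol of the blood does not cross the blood-brain barrier. Acetyl-CoA is built into mevalonate and then into isoprenoid units, which are joined into squalene and closed into lanosterol. Lanosterol is trimmed and reduced to cholesterol along the Bloch and the Kandutsch-Russell routes, which use the same enzymes in a different order. Most of these enzymes are targets of SREBP2, a transcription factor anchored in the membrane of the endoplasmic reticulum. SCAP carries SREBP2 to the Golgi for cleavage when sterols are low, and the INSIG proteins hold SCAP back when sterols are high. Oligodendrocytes and astrocytes are the main cholesterol producers of the adult brain, and neurons take up cholesterol that glia release on apolipoprotein E.

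The first question was whether expression of the HTT fragments in the hypothalamus was accompanied by a change in these genes. Of the 28 measured members, 9 were lower in 18Q vs. WT and 11 were lower in 79Q vs. WT at an adjusted p under 0.05, and 0 were higher in either comparison. Over all 34760 probe sets the share called was 2.11% in 18Q vs. WT (0.308% lower, 1.81% higher) and 2.07% in 79Q vs. WT (0.581% lower, 1.49% higher). On the linear scale, intensities of the called members changed by -13.3% to -21.9% with 18Q and by -13.4% to -25.4% with 79Q. At an unadjusted p under 0.05, 17 members were lower and 1 was higher in 18Q vs. WT, beside 6.50% and 6.15% of all probe sets, and 18 were lower and 1 was higher in 79Q vs. WT, beside 8.31% and 5.65%. Together these are 18 members against a background of 12.6%, and 19 members against 14.0%. All tests were two-sided tests of limma, a linear model with an empirical Bayes estimate of the spread, with the Benjamini-Hochberg adjustment over all probe sets. 7 members were called in both comparisons (Idi1, Sqle, Cyp51, Tm7sf2, Nsdhl, Dhcr7 and Insig1), which is 77.8% of the calls in 18Q vs. WT and 63.6% of those in 79Q vs. WT. Mvk and Mvd passed in 18Q vs. WT alone, and Hmgcs1, Fdft1, Lss and Msmo1 in 79Q vs. WT alone. The other 15 members passed in neither. Both comparisons use the same 5 WT mice, so they are not independent of each other.

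The called members were enzymes of the route and Insig1. In 18Q vs. WT 3 of 7 mevalonate genes, 1 of 3 squalene and lanosterol genes, 4 of 8 genes of the later sterol steps, 1 of 5 genes of SREBP2 control and 0 of 5 genes of uptake and transport were called. In 79Q vs. WT these counts were 2, 3, 5, 1 and 0. The median log2 fold change of the 18 enzymes was -0.20 in 18Q vs. WT and -0.22 in 79Q vs. WT, and that of the 5 uptake and transport genes was 0.030 and 0.018, beside medians over all probe sets of -0.011 and -0.016. All 18 enzymes lay below WT in both comparisons, where 55.0% and 57.8% of all probe sets did. Of the 28 members, 25 and 23 lay below WT. In 18Q vs. WT the groups did not overlap for 9 members that were lower, against 1.5% of all probe sets, and for 1 that was higher, against 2.57%, which makes 10 members against 4.07%. In 79Q vs. WT they did not overlap for 10 members, all lower, against 0.938% of all probe sets lower and 2.71% in either direction. In bulk tissue, fewer cells of a type and less RNA per cell cannot be told apart.

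**Figure D1:**
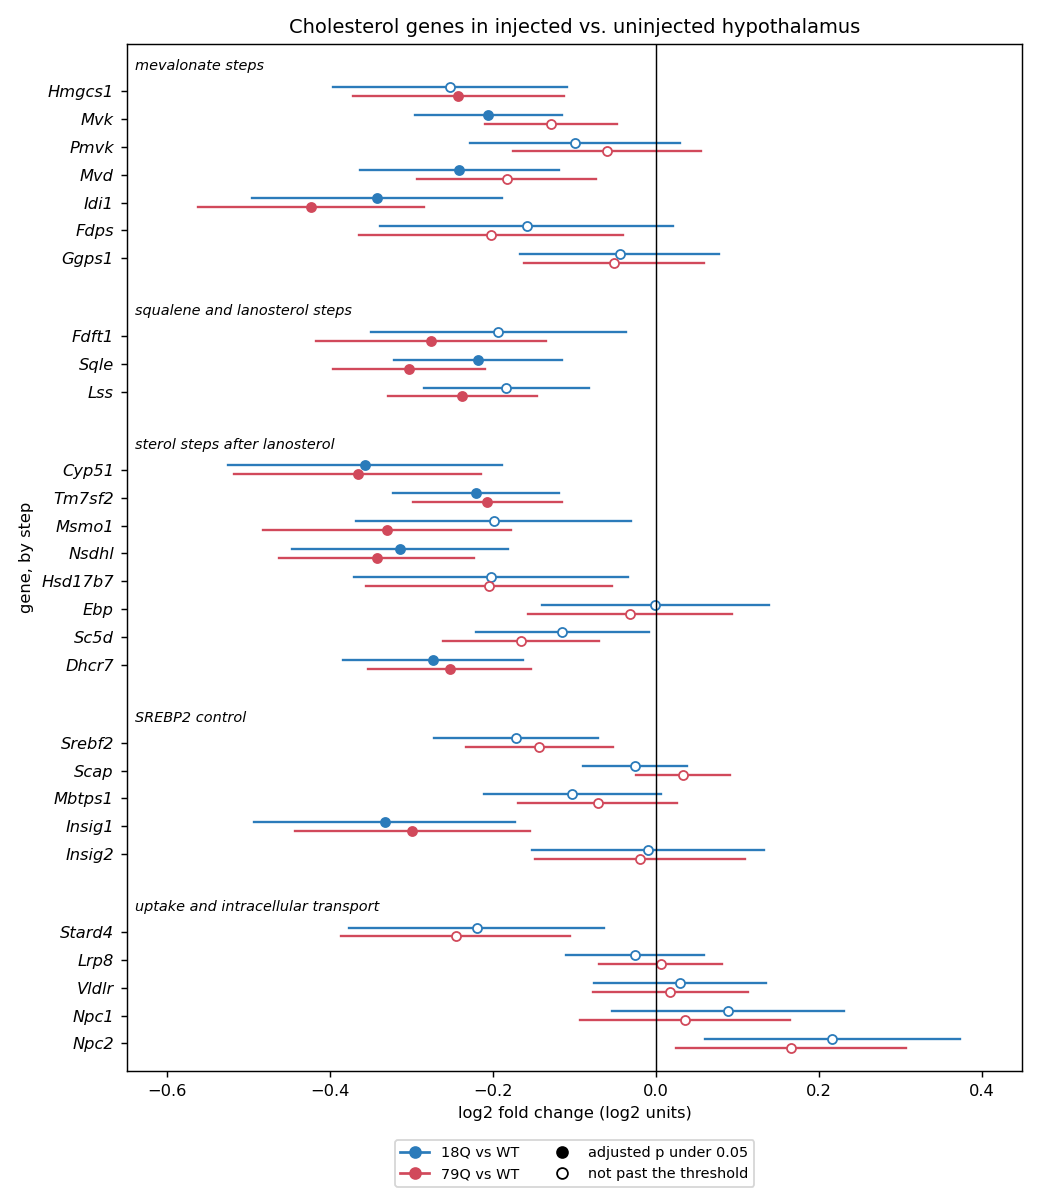
Log2 fold change (x axis, log2 units) of the 28 measured genes, grouped by step on the y axis, in 18Q vs. WT (blue) and 79Q vs. WT (red); points are limma estimates, lines their 95% intervals, and filled points have an adjusted p under 0.05. The enzymes lie left of 0 down to -0.42 for Idi1 in 79Q vs. WT, while Scap, Insig2, Lrp8, Vldlr and Npc1 sit near 0 and Npc2 lies to the right at 0.22 in 18Q vs. WT.

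Promoters of called members were read from the RefSeq table for GRCm38.p6, which holds 300 bases around each transcript start (250 before and 50 after) and has 23 of the 28 measured members. Sqle, Fdps, Fdft1, Npc1 and Stard4 are not in it. SREBP2 binds sterol response elements, usually beside sites for NF-Y and Sp1, and these letters were searched on both strands. The strict sterol element TCACNCCAC occurred in 1 member, Hmgcs1, and in 1.44% of the 27025 symbols of the table. Its core TCACNCC, which every strict match also contains, occurred in 5 members (Hmgcs1, Msmo1, Srebf2, Insig2 and Lrp8) and in 17.6% of all symbols. The NF-Y letters CCAAT occurred in 20 of 23 members, against 41.1% of all symbols, and the Sp1 letters GGGCGG in 20 of 23, against 38.2%. All 11 called members in the table held both NF-Y and Sp1 letters, and 9 of the 12 other members held each motif. The core sterol element occurred in 2 of the 11 called members and in 3 of the 12 others. A match is a description of the letters, not a measured binding site.

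The 250 bases before the start are printed for the called genes with a sterol element match, Msmo1 and Hmgcs1, and for Idi1 and Nsdhl, which have the smallest p among the other called genes of the table and were added after their values were seen. Capitals mark sterol element matches (TCACNCC or TCACNCCAC) and NF-Y letters (CCAAT, or ATTGG where it lies on the other strand). They are taken from chr8:64733579-64733828 (minus strand) for Msmo1, chr13:119690101-119690350 (plus strand) for Hmgcs1, chr13:8885356-8885605 (plus strand) for Idi1 and chrX:72918271-72918520 (plus strand) for Nsdhl, each written 5′ to 3′ in the direction of transcription.
Msmo1: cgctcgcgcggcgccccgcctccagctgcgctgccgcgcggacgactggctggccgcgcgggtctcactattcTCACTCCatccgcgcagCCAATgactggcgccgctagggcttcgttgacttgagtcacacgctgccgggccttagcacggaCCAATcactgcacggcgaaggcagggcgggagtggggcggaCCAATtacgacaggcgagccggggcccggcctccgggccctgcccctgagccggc
Hmgcs1: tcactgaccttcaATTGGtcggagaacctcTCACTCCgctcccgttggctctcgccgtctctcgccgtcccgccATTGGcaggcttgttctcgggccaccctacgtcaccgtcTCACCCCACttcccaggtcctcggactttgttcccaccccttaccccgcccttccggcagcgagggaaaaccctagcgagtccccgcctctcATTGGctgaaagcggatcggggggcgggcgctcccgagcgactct
Idi1: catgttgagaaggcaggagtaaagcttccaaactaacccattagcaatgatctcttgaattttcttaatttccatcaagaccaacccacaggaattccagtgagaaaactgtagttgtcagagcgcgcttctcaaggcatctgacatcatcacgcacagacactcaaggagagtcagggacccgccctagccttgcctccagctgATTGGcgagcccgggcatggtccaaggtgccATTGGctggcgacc
Nsdhl: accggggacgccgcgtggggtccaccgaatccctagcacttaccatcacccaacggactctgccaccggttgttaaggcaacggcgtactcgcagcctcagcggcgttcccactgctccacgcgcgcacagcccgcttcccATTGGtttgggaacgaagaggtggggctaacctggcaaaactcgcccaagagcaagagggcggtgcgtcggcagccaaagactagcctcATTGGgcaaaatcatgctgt
Msmo1 held 1 core element and 3 NF-Y matches in these bases, Hmgcs1 2 core elements, of which 1 was strict, and 3 NF-Y matches, and Idi1 and Nsdhl 0 core elements and 2 NF-Y matches each.

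In the mevalonate steps, Idi1 had the lowest fold change. It encodes the isomerase that turns isopentenyl diphosphate into its reactive partner. Log2 intensity of Idi1 was 9.29, 9.16, 9.30, 9.42 and 9.18 in the WT mice, 8.98, 8.98, 9.13, 8.64 and 8.91 in the 18Q mice, and 8.77, 8.83 and 9.003 (lowest, median and highest) in the 79Q mice. Every injected mouse lay below every WT mouse. Idi1 stood at a log2(FC) of -0.34 ± 0.073 (SE, adjusted p = 0.0142) with 18Q and of -0.42 ± 0.066 (SE, adjusted p = 0.00110) with 79Q, where FC is the fold change over WT and every adjusted p is from limma. A second Idi1 probe set of lower intensity gave -0.28 (adjusted p = 0.442) and -0.29 (adjusted p = 0.312), lower in both but past the threshold in neither. Mvk, mevalonate kinase, phosphorylates mevalonate. Log2 intensity of Mvk was 9.07, 8.999, 9.14, 9.11 and 8.94 in the WT mice, 8.91, 8.85, 8.86, 8.73 and 8.90 in the 18Q mice, and 8.90, 8.92 and 8.96 (lowest, median and highest) in the 79Q mice. The 18Q mice were all below the WT mice, whereas the highest 79Q mice passed the lowest WT mouse. Mvk stood at a log2(FC) of -0.21 ± 0.043 (SE, adjusted p = 0.0119) with 18Q and of -0.13 ± 0.038 (SE, adjusted p = 0.105) with 79Q. Mvd removes a carboxyl group to give isopentenyl diphosphate. Log2 intensity of Mvd was 8.39, 8.38, 8.41, 8.60 and 8.31 in the WT mice, 8.11, 8.27, 8.20, 8.07 and 8.24 in the 18Q mice, and 8.11, 8.23 and 8.36 (lowest, median and highest) in the 79Q mice. Here too the 18Q mice did not overlap with WT and the 79Q mice did. Mvd stood at a log2(FC) of -0.24 ± 0.058 (SE, adjusted p = 0.0336) with 18Q and of -0.18 ± 0.052 (SE, adjusted p = 0.0864) with 79Q, and the call in 18Q vs. WT held in 9 of the 18 other settings tried.

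Hmgcs1 makes HMG-CoA, the substrate from which mevalonate is formed. It ranged from 10.80 to 10.96 in WT, from 10.38 to 10.82 in 18Q and from 10.52 to 10.75 in 79Q, so that 79Q lay apart from WT and a single 18Q mouse reached the WT range. Hmgcs1 stood at a log2(FC) of -0.25 ± 0.068 (SE, adjusted p = 0.0677) with 18Q and of -0.24 ± 0.062 (SE, adjusted p = 0.0485) with 79Q. This call in 79Q vs. WT held in 7 of the 21 other settings tried. The remaining mevalonate genes did not pass. Fdps, which makes farnesyl diphosphate, had a log2 fold change of -0.16 and -0.20 (adjusted p = 0.478 and 0.222). Pmvk, the kinase after Mvk, had -0.099 and -0.060, and Ggps1, which leaves the cholesterol route to make geranylgeranyl diphosphate, had -0.045 and -0.052. The 95% intervals of Ggps1 were -0.17 to 0.078 and -0.16 to 0.058.

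The squalene and lanosterol steps commit farnesyl diphosphate to sterols. Sqle, squalene epoxidase, had the smallest p of any member. Log2 intensity of Sqle was 9.82, 9.84, 9.78, 9.98 and 9.85 in the WT mice, 9.56, 9.68, 9.63, 9.58 and 9.73 in the 18Q mice, and 9.42, 9.57 and 9.65 (lowest, median and highest) in the 79Q mice. All 13 injected mice were below the lowest WT mouse. Sqle stood at a log2(FC) of -0.22 ± 0.049 (SE, adjusted p = 0.0203) with 18Q and of -0.30 ± 0.044 (SE, adjusted p = 0.000598) with 79Q. Lss closes squalene epoxide to lanosterol. Log2 intensity of Lss was 8.95, 9.03, 8.86, 9.11 and 8.93 in the WT mice, 8.76, 8.84, 8.87, 8.73 and 8.79 in the 18Q mice, and 8.62, 8.76 and 8.81 (lowest, median and highest) in the 79Q mice. The 79Q mice lay apart from WT, and the highest 18Q mouse met the lowest WT mouse. Lss stood at a log2(FC) of -0.18 ± 0.048 (SE, adjusted p = 0.0585) with 18Q and of -0.24 ± 0.044 (SE, adjusted p = 0.00496) with 79Q. Fdft1, squalene synthase, joins 2 farnesyl units. Log2 intensity of Fdft1 was 11.48, 11.44, 11.66, 11.66 and 11.66 in the WT mice, 11.35, 11.43, 11.28, 11.41 and 11.47 in the 18Q mice, and 10.97, 11.34 and 11.46 (lowest, median and highest) in the 79Q mice. The 79Q values included 1 mouse far below the others, replicate 2 at 10.97, and both injected groups overlapped with WT at their upper ends. Fdft1 stood at a log2(FC) of -0.19 ± 0.074 (SE, adjusted p = 0.253) with 18Q and of -0.28 ± 0.067 (SE, adjusted p = 0.0377) with 79Q. Without 79Q replicate 2 the value in 79Q vs. WT was -0.23 (adjusted p = 0.0190), and over the 21 other settings tried the call held in 10. A second Fdft1 probe set gave -0.25 (adjusted p = 0.122) and -0.30 (adjusted p = 0.0233), called in the same comparison as the first.

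In the sterol steps after lanosterol, Cyp51 acts first and removes the methyl group at carbon 14 of lanosterol. Log2 intensity of Cyp51 was 9.38, 9.38, 9.39, 9.56 and 9.43 in the WT mice, 8.84, 9.21, 9.34, 8.87 and 9.09 in the 18Q mice, and 8.96, 9.04 and 9.19 (lowest, median and highest) in the 79Q mice. No injected mouse reached the WT range, and the 18Q mice were spread more widely than the 79Q mice. Cyp51 stood at a log2(FC) of -0.36 ± 0.080 (SE, adjusted p = 0.0203) with 18Q and of -0.37 ± 0.072 (SE, adjusted p = 0.00887) with 79Q. Without WT control replicate 5, the highest of its group, Cyp51 stood at -0.32 (adjusted p = 0.0711) in 18Q vs. WT and at -0.33 (adjusted p = 0.0399) in 79Q vs. WT. Nsdhl takes part in the removal of the methyl groups at carbon 4. Log2 intensity of Nsdhl was 9.997, 10.03, 10.14, 10.20 and 9.999 in the WT mice, 9.82, 9.78, 9.74, 9.58 and 9.88 in the 18Q mice, and 9.60, 9.77 and 9.86 (lowest, median and highest) in the 79Q mice. Both injected groups lay wholly below WT. Nsdhl stood at a log2(FC) of -0.31 ± 0.063 (SE, adjusted p = 0.00893) with 18Q and of -0.34 ± 0.057 (SE, adjusted p = 0.00199) with 79Q.

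Dhcr7 reduces 7-dehydrocholesterol to cholesterol and is the last enzyme of the Kandutsch-Russell route. Log2 intensity of Dhcr7 was 9.75, 9.73, 9.68, 9.70 and 9.63 in the WT mice, 9.42, 9.50, 9.40, 9.25 and 9.56 in the 18Q mice, and 9.34, 9.45 and 9.55 (lowest, median and highest) in the 79Q mice. Injected and WT mice did not overlap. Dhcr7 stood at a log2(FC) of -0.27 ± 0.053 (SE, adjusted p = 0.00655) with 18Q and of -0.25 ± 0.048 (SE, adjusted p = 0.00601) with 79Q. Tm7sf2 is a sterol reductase that acts on the product of Cyp51. Log2 intensity of Tm7sf2 was 8.70, 8.55, 8.60, 8.70 and 8.48 in the WT mice, 8.32, 8.37, 8.45, 8.34 and 8.46 in the 18Q mice, and 8.35, 8.38 and 8.51 (lowest, median and highest) in the 79Q mice. The 18Q mice were all below WT, and 1 of the 79Q mice entered the WT range. Tm7sf2 stood at a log2(FC) of -0.22 ± 0.048 (SE, adjusted p = 0.0179) with 18Q and of -0.21 ± 0.044 (SE, adjusted p = 0.0148) with 79Q. Msmo1 oxidizes the carbon 4 methyl groups. Log2 intensity of Msmo1 was 10.64, 10.65, 10.73, 10.89 and 10.62 in the WT mice, 10.57, 10.61, 10.66, 10.18 and 10.52 in the 18Q mice, and 10.25, 10.41 and 10.47 (lowest, median and highest) in the 79Q mice. The 79Q mice stood apart from WT, whereas 18Q overlapped and held 1 low mouse at 10.18. Msmo1 stood at a log2(FC) of -0.20 ± 0.080 (SE, adjusted p = 0.283) with 18Q and of -0.33 ± 0.072 (SE, adjusted p = 0.0206) with 79Q.

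Ebp, Sc5d and Hsd17b7 did not pass in either comparison. Hsd17b7 completes the removal of the carbon 4 methyl groups and had a log2 fold change of -0.20 and -0.21 (adjusted p = 0.270 and 0.178). Sc5d introduces the double bond at carbon 5. In 79Q vs. WT it was -0.17 (adjusted p = 0.0728), and its 79Q mice (9.83 to 9.99) lay below all WT mice (10.05 to 10.13). In 18Q vs. WT it was -0.12 (adjusted p = 0.341). Ebp, the isomerase of the sterol ring, was at -0.00073 and -0.032, with 95% intervals of -0.14 to 0.14 and -0.16 to 0.094.

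**Figure D2:**
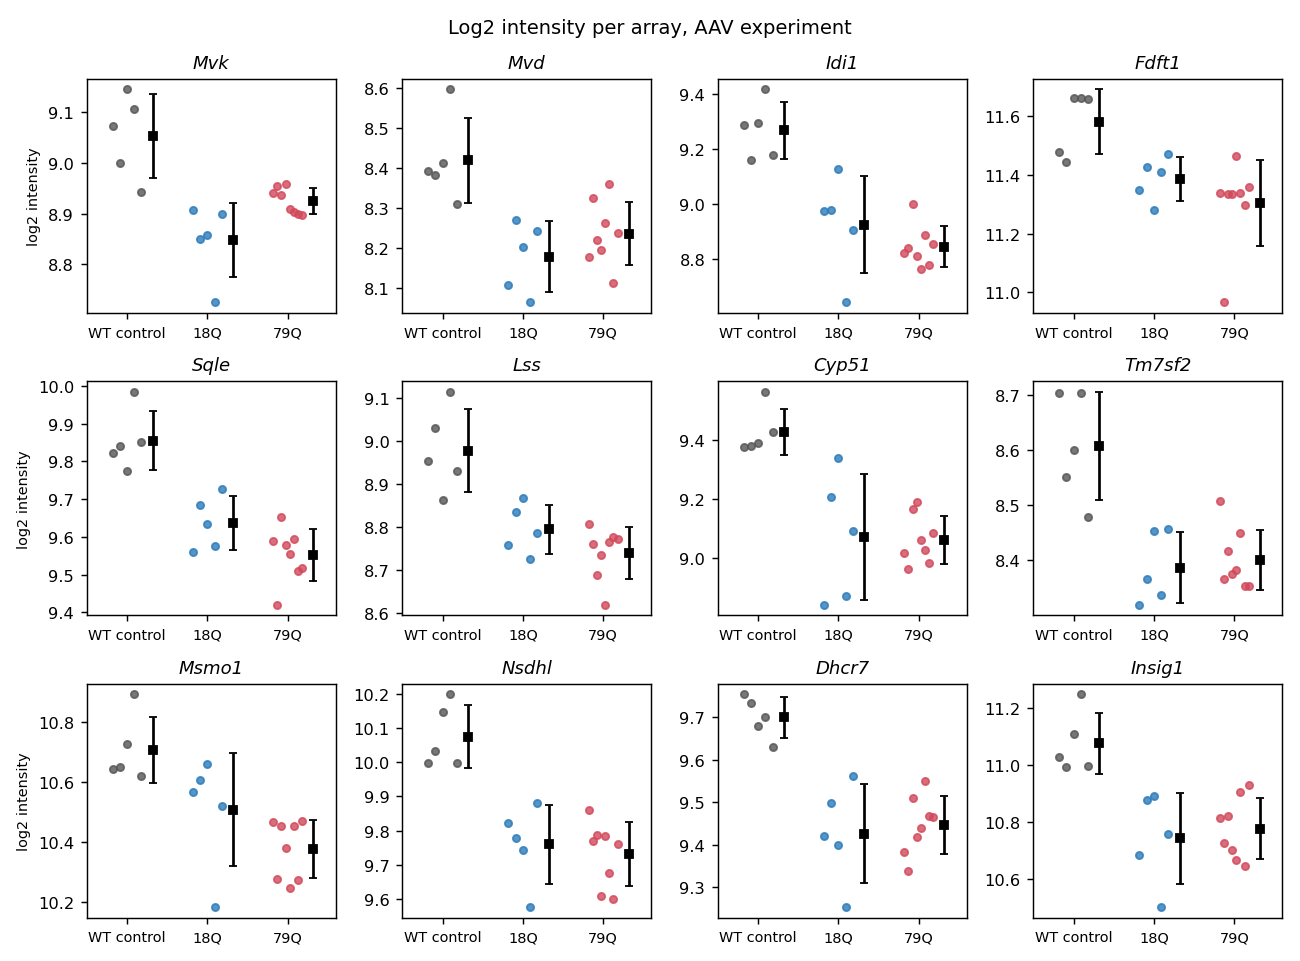
Log2 intensity (y axis) of the 12 called members with the smallest p in each mouse of the AAV experiment, by group (x axis); dots are single arrays and squares with bars the mean ± SD. The 5 WT mice stand above the 5 18Q and 8 79Q mice for Idi1, Sqle, Cyp51, Nsdhl, Dhcr7 and Insig1, and the low 79Q mouse of Fdft1 at 10.97 is visible.

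Among the genes of SREBP2 control, Insig1 alone was called. Insig1 is both a brake on SREBP2 and one of its targets. Log2 intensity of Insig1 was 11.03, 10.99, 11.11, 11.25 and 10.998 in the WT mice, 10.69, 10.88, 10.89, 10.50 and 10.76 in the 18Q mice, and 10.65, 10.77 and 10.93 (lowest, median and highest) in the 79Q mice. Injected mice lay below all WT mice. Insig1 stood at a log2(FC) of -0.33 ± 0.076 (SE, adjusted p = 0.0238) with 18Q and of -0.30 ± 0.069 (SE, adjusted p = 0.0275) with 79Q. Srebf2, which encodes SREBP2, ranged from 10.90 to 10.996 in WT, from 10.67 to 10.91 in 18Q and from 10.73 to 10.92 in 79Q, with a log2 fold change of -0.17 (adjusted p = 0.0791) and -0.14 (adjusted p = 0.106). Every injected mouse was below the WT mean, yet neither value passed. Mbtps1, the first of the proteases that cleave SREBP2, was at -0.10 and -0.072. Scap was at -0.025 and 0.034, with 95% intervals of -0.089 to 0.038 and -0.024 to 0.091. Insig2, the paralog of Insig1, was at -0.010 and -0.020, with 95% intervals of -0.15 to 0.13 and -0.15 to 0.11.

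No gene of uptake and intracellular transport was called. Stard4, a cytosolic sterol carrier whose gene is an SREBP2 target, had a log2 fold change of -0.22 (adjusted p = 0.170) and -0.25 (adjusted p = 0.0705). It was at 8.05, 8.28, 8.09, 8.22 and 7.89 in WT and at 7.98, 7.81, 7.94, 7.78 and 7.91 in 18Q, with 7.71, 7.86 and 8.01 as lowest, median and highest in 79Q. The lowest WT mouse lay among the injected mice. Lrp8 and Vldlr, the apolipoprotein E receptors that also bind reelin, were at -0.026 and 0.0056 and at 0.030 and 0.018, and their 95% intervals ran from -0.11 at the lowest to 0.13 at the highest. Npc1 and Npc2 together move cholesterol out of the lysosome. Npc1 was at 0.088 and 0.035. Npc2 pointed the other way from the enzymes. Log2 intensity of Npc2 was 9.36, 9.42, 9.35, 9.40 and 9.40 in the WT mice, 9.62, 9.52, 9.79, 9.65 and 9.43 in the 18Q mice, and 9.39, 9.51 and 9.78 (lowest, median and highest) in the 79Q mice. Npc2 stood at a log2(FC) of 0.22 ± 0.075 (SE, adjusted p = 0.182) with 18Q and of 0.17 ± 0.067 (SE, adjusted p = 0.256) with 79Q, with 18Q wholly above WT.

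The mean of the 18 enzymes per mouse summarizes the size of the shift. It was 9.59 ± 0.056 (SD, n = 5) in WT, 9.39 ± 0.084 (n = 5) in 18Q and 9.37 ± 0.041 (n = 8) in 79Q. The WT mice ranged from 9.53 to 9.68, the 18Q mice from 9.26 to 9.46 and the 79Q mice from 9.31 to 9.41, so neither injected group met the WT range. The mean of the 5 uptake and transport genes was 9.60 ± 0.037 in WT, 9.62 ± 0.084 in 18Q and 9.60 ± 0.017 in 79Q. The mean of the 5 genes of SREBP2 control was 10.55 to 10.63 in WT, 10.41 to 10.54 in 18Q and 10.42 to 10.56 in 79Q, so that all 5 of the 18Q mice and 7 of the 8 79Q mice lay below WT.

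The counts of calls depended on single mice. Without WT control replicate 5, 3 members were called in 18Q vs. WT (Mvk, Nsdhl and Dhcr7) and 6 in 79Q vs. WT (Idi1, Sqle, Lss, Cyp51, Nsdhl and Dhcr7), and the enzymes' median was -0.18 and -0.20. Over all probe sets 1.52% and 1.26% were then called. Without 18Q replicate 1 and without 18Q replicate 4, 4 members were called in 18Q vs. WT each (Mvk, Idi1, Nsdhl and Dhcr7 in both cases), beside 1.52% and 1.36% of all probe sets, and without WT control replicate 4, 7 in 79Q vs. WT, beside 1.40%. Without the 4 mice that lay above WT in thalamic markers, a setting chosen after the values were seen, 7 members were called in 18Q vs. WT (Hmgcs1, Idi1, Cyp51, Tm7sf2, Nsdhl, Dhcr7 and Insig1), beside 1.79% of all probe sets, and 7 in 79Q vs. WT (Idi1, Sqle, Lss, Cyp51, Nsdhl, Dhcr7 and Insig1), beside 1.01%. Idi1 was then at -0.39 (adjusted p = 0.0142) and -0.42 (adjusted p = 0.0101). Over all single mice left out, the median of the enzymes stayed between -0.23 and -0.18 in 18Q vs. WT and between -0.24 and -0.20 in 79Q vs. WT.

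Whether the 18Q and the 79Q fragment differed was tested directly. 0 of 28 members and 0 of all 34760 probe sets (0%) were called in 79Q vs. 18Q, and the smallest adjusted p over all probe sets was 0.256. At an unadjusted p under 0.05 there was 1 member, Scap, beside 4.24% of all probe sets (1.59% higher). In order of p, Scap was higher in 79Q by 0.059 (SE 0.027, unadjusted p = 0.0450), followed by Mvk at 0.077 (SE 0.038, unadjusted p = 0.0601) and Mvd at 0.058 (SE 0.052, unadjusted p = 0.280). Lower in 79Q, again by p, were Sqle at -0.084 (SE 0.044, unadjusted p = 0.0722), Msmo1 at -0.13 (SE 0.072, unadjusted p = 0.0887) and Lss at -0.054 (SE 0.044, unadjusted p = 0.229). The 95% interval of Sqle was -0.18 to 0.0085, that of Msmo1 -0.28 to 0.022 and that of Idi1 -0.22 to 0.058, which are the sizes of difference these data allow. 17 of 28 members lay below 18Q, as did 54.6% of all probe sets, and the median over the 18 enzymes was -0.019, beside -0.0071 over all probe sets. Passing in one comparison with WT and not in the other, as for Mvk, Mvd, Hmgcs1, Fdft1, Lss and Msmo1, therefore does not show a difference between 18Q and 79Q.

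Genes next to the route were read from 4 further lists. Of 11 measured genes of the LXR arm, efflux and oxysterols, 2 were called higher in 18Q vs. WT (Abca1 and Apoe), 2 were called higher in 79Q vs. WT (Abca1 and Ch25h) and 0 were called lower, where 1.81% and 1.49% of all probe sets were called higher. LXR receptors sense oxysterols and raise the export of cholesterol. Log2 fold changes in this list ran from -0.18 to 0.42 with 18Q and from -0.19 to 0.38 with 79Q. Abcg1 was at 10.11 to 10.31 in WT, 10.13 to 10.34 in 18Q and 10.24 to 10.36 in 79Q. Lcat was at 9.55 to 9.72 in WT, 9.38 to 10.02 in 18Q and 9.28 to 9.60 in 79Q, and neither gene was called. Log2 intensity of Abca1, which loads cholesterol onto apolipoproteins, was 9.33, 9.35, 9.19, 9.35 and 9.25 in the WT mice, 9.68, 9.70, 9.86, 9.86 and 9.47 in the 18Q mice, and 9.44, 9.60 and 9.80 (lowest, median and highest) in the 79Q mice. All injected mice were above all WT mice. Abca1 stood at a log2(FC) of 0.42 ± 0.076 (SE, adjusted p = 0.00404) with 18Q and of 0.31 ± 0.069 (SE, adjusted p = 0.0206) with 79Q. Apoe, the main lipoprotein component made by astrocytes and microglia, was at 13.07, 13.13, 13.01, 13.03 and 13.02 in WT, at 13.21, 13.22, 13.25, 13.27 and 13.17 in 18Q and at 13.11, 13.21 and 13.29 (lowest, median and highest) in 79Q. Apoe stood at a log2(FC) of 0.17 ± 0.040 (SE, adjusted p = 0.0311) with 18Q and of 0.14 ± 0.036 (SE, adjusted p = 0.0589) with 79Q.

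Ch25h makes 25-hydroxycholesterol, an oxysterol that holds SREBP2 in the endoplasmic reticulum and is produced by activated macrophages and microglia. Log2 intensity of Ch25h was 5.83, 5.73, 5.83, 5.71 and 5.62 in the WT mice, 6.15, 6.13, 6.20, 6.10 and 5.93 in the 18Q mice, and 5.84, 6.09 and 6.42 (lowest, median and highest) in the 79Q mice. Both injected groups lay above WT, at levels below the array median. Ch25h stood at a log2(FC) of 0.36 ± 0.096 (SE, adjusted p = 0.0670) with 18Q and of 0.38 ± 0.087 (SE, adjusted p = 0.0255) with 79Q. Cyp46a1, the neuronal enzyme that turns cholesterol into 24S-hydroxycholesterol for export from the brain, was read after its values were seen. Cyp46a1 stood at a log2(FC) of -0.18 ± 0.049 (SE, adjusted p = 0.0622) with 18Q and of -0.17 ± 0.044 (SE, adjusted p = 0.0553) with 79Q. All 8 of the 79Q mice (10.42 to 10.54) were below the WT mice (10.56 to 10.73).

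The other lists held no called gene. In the isoprenoid branch (0 of 7), Idi2 was at -0.35 and -0.15 (adjusted p = 0.0970 and 0.498) and Fntb, a farnesyltransferase subunit, at -0.12 and -0.13 (adjusted p = 0.171 and 0.0742). In the sterol-dependent turnover machinery (0 of 6), Mylip, a ubiquitin ligase for lipoprotein receptors induced by LXR, was at 0.16 and 0.049 (adjusted p = 0.104 and 0.676) and Erlin2, a membrane protein of the endoplasmic reticulum, at -0.075 and -0.027. Of 2 other genes of the route, Lbr, a sterol reductase like Tm7sf2, was at -0.049 and -0.086, and Srebf1, the SREBP of fatty acid synthesis, at 0.018 and 0.014. The median log2 fold change was -0.098 and -0.086 for the isoprenoid branch and 0.067 and 0.058 for the LXR list. In 79Q vs. 18Q and in BACHD at either age, 0 genes of these lists were called.

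**Figure D3:**
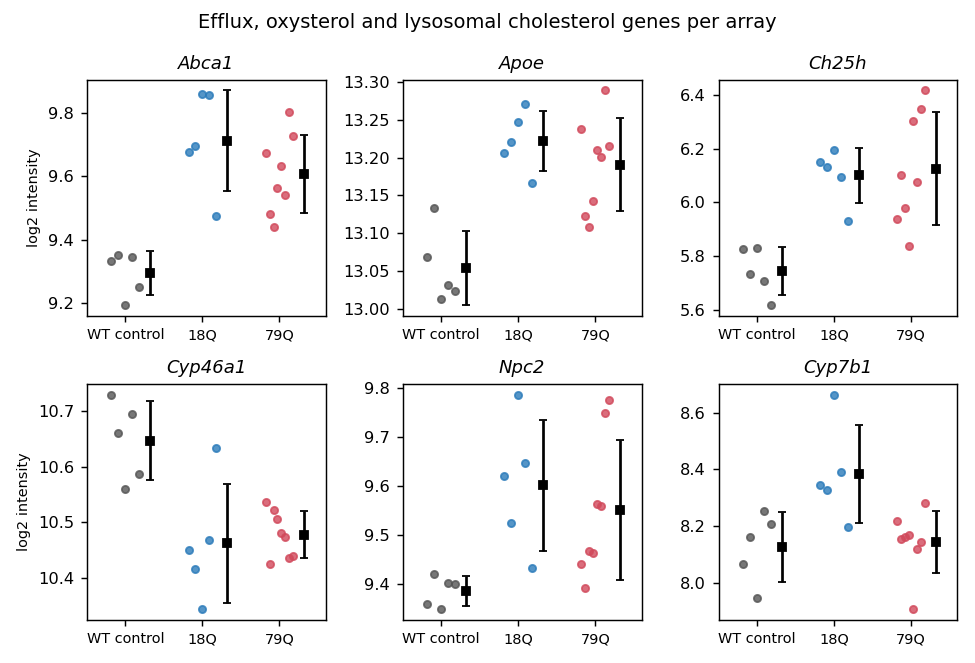
Log2 intensity (y axis) of Abca1, Apoe, Ch25h, Cyp46a1, Npc2 and Cyp7b1 in each mouse of the AAV experiment, by group (x axis); dots are single arrays and squares with bars the mean ± SD. Abca1 and Ch25h of all injected mice lie above the WT mice, Cyp46a1 of the 79Q mice lies below them, and Cyp7b1, a further gene shown after its values were seen and an oxysterol hydroxylase, had a log2 fold change of 0.26 (adjusted p = 0.132) with 18Q and 0.017 (adjusted p = 0.957) with 79Q.

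Markers of some cell types also differed between injected and WT mice in the AAV experiment. The microglia list (7 genes, among them Cx3cr1, Csf1r, C1qa and C1qb) had 5 genes called higher in each comparison, where 1.81% of all probe sets were called higher in 18Q vs. WT and 1.49% in 79Q vs. WT, and its mean was 8.44 to 8.52 in WT, 8.99 to 9.55 in 18Q and 8.95 to 9.68 in 79Q. The list of lymphocytes and plasma cells had 4 of 7 called higher in each, with Jchain at 4.50 in 18Q vs. WT and 3.85 in 79Q vs. WT, and a mean of 6.14 to 6.31 in WT, 6.89 to 7.54 in 18Q and 6.48 to 7.54 in 79Q. Of the cell types that make most cholesterol, the oligodendrocyte list had 0 of 9 called in either comparison (10.76 to 10.89 in WT, 10.60 to 11.32 in 18Q, 10.57 to 11.07 in 79Q), while the 8 astrocyte genes had 2 called higher in 18Q vs. WT (Gfap and Aqp4) and 0 in 79Q vs. WT. The mean of the astrocyte list was 10.99 to 11.09 in WT, 11.12 to 11.36 in 18Q and 11.06 to 11.23 in 79Q, with all 5 of the 18Q mice and 5 of the 8 79Q mice above WT, while Slc1a3 was at -0.079 and -0.19 and Aldoc at -0.059 and -0.082 without passing. The neuron list was 12.04 to 12.12 in WT, 11.93 to 11.99 in 18Q and 11.96 to 12.06 in 79Q, with Eno2 called lower in 18Q vs. WT (-0.14, adjusted p = 0.0315, beside 0.308% of all probe sets called lower) and 0 of 8 called in 79Q vs. WT. Of the 10 hypothalamic peptide genes, 0 were called. Their mean was 10.96 to 11.13 in WT, 10.08 to 11.22 in 18Q and 10.40 to 10.98 in 79Q. Their median log2 fold change was -0.21 with 18Q and -0.43 with 79Q, and all 10 lay below 0 in both. By this mean, 4 of the 18Q mice lay below all WT mice and 1 above them. Among the 79Q mice, 7 of the 8 lay below all WT mice. The 5 pituitary genes had a mean of 6.53 to 7.19 in WT, 7.09 to 8.89 in 18Q and 6.71 to 8.55 in 79Q. The 7 thalamic genes were 9.01 to 9.40 in WT, 9.02 to 9.75 in 18Q and 9.05 to 9.64 in 79Q. In the endothelium list of 7 genes the median log2 fold change was 0.25 and 0.17, and the mean 8.74 to 8.97 in WT, 8.82 to 9.13 in 18Q and 8.71 to 8.98 in 79Q. Mfsd2a was called lower in both (-0.43 and -0.55), Cldn5 was called higher in 18Q vs. WT, and the other 5 endothelium genes lay above 0 without passing. How much these shifts contribute to the lower cholesterol genes was not tested.

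The second question was whether BACHD mice showed a change in the same genes. At 2 months 0 of 28 members and 0 of all probe sets (0%) were called, with a smallest adjusted p over all probe sets of 0.841. At an unadjusted p under 0.05 there was 1 member, Insig1, beside 4.09% of all probe sets (3.22% lower). Log2 intensity of Insig1 was 11.06, 11.24 and 11.67 (lowest, median and highest) in the 6 WT mice and 10.96, 11.08 and 11.20 in the 6 BACHD mice. WT replicates 1 and 2 (11.67 and 11.58) stood above the other mice, and the remaining WT mice (11.06 to 11.26) overlapped with BACHD. The log2 fold change of Insig1 was -0.23 (SE 0.10, unadjusted p = 0.0457), and it was -0.16 without WT replicate 1 and -0.18 without WT replicate 2. Replicates 1 and 2 had thalamic marker means of 10.73 and 10.46, while WT replicates 3 and 4, with 10.85 and 10.42, did not stand apart in Insig1. The part of neighbouring tissue in the difference was not tested.

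In order of p, the next of the members below 0 at 2 months were Hmgcs1 at -0.14 (SE 0.075, unadjusted p = 0.0773) and Mvk at -0.089 (SE 0.065, unadjusted p = 0.193). Of the members above 0, the smallest p belonged to Fdft1 at 0.17 (SE 0.088, unadjusted p = 0.0792), Nsdhl at 0.099 (SE 0.097, unadjusted p = 0.330) and Dhcr7 at 0.061 (SE 0.075, unadjusted p = 0.435). Of the 28 members 19 lay below WT, as did 65.7% of all probe sets. The median of the 18 enzymes was -0.0028, beside -0.034 over all probe sets, and their mean per mouse was 9.65 to 9.79 in BACHD and 9.57 to 9.86 in WT. The BACHD mice thus lay within the WT range. The mean of the 5 genes of SREBP2 control was 10.50 to 10.57 in BACHD and 10.52 to 10.82 in WT, with WT replicates 1 and 2 above all other mice.

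At 10 months 0 of 28 members and 0 of all probe sets (0%) were called, with a smallest adjusted p over all probe sets of 0.322. Ggps1 was the 1 member with an unadjusted p under 0.05, beside 4.55% of all probe sets (2.55% higher). It was at 9.99, 9.93 and 9.93 in the 3 WT mice and at 10.08, 10.06, 10.02, 10.03 and 10.16 in the 5 BACHD mice. The groups did not overlap, which was also so for 3.49% of all probe sets (1.93% higher), and the log2 fold change was 0.12 (SE 0.046, unadjusted p = 0.0319). The exact permutation p of 5 against 3 mice was 0.0357, where the smallest possible is 0.0179. By p, the next members above 0 were Insig2 at 0.077 (SE 0.048, unadjusted p = 0.148) and Mbtps1 at 0.063 (SE 0.042, unadjusted p = 0.167). Of the members below 0, those with the smallest p were Dhcr7 at -0.071 (SE 0.052, unadjusted p = 0.203), Nsdhl at -0.071 (SE 0.057, unadjusted p = 0.247) and Ebp at -0.054 (SE 0.048, unadjusted p = 0.298). Of the 28 members 11 lay below WT, as did 46.1% of all probe sets. The median of the 18 enzymes was 0.0035, beside 0.0071 over all probe sets, and their mean was 9.77 to 9.88 in BACHD and 9.77 to 9.92 in WT.

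**Figure D4:**
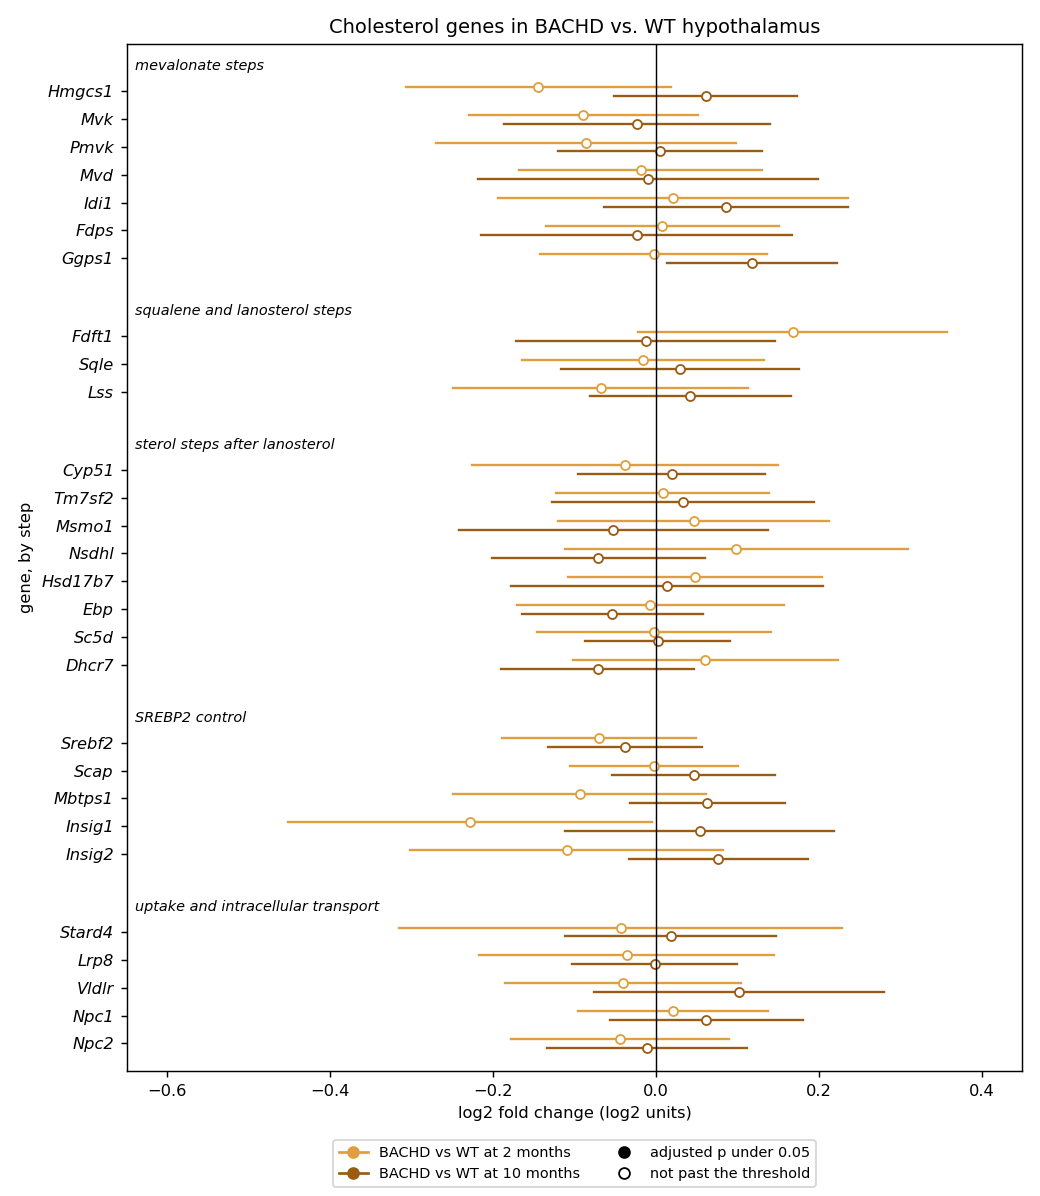
Log2 fold change (x axis, log2 units) of the 28 measured genes, grouped by step on the y axis, in BACHD vs. WT at 2 months (light) and at 10 months (dark); points are limma estimates, lines their 95% intervals, on the same scale as the plot of the AAV comparisons. No point is filled, since 0 members have an adjusted p under 0.05, and the estimates run from -0.23 for Insig1 to 0.17 for Fdft1, both at 2 months.

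No member was called in the age by genotype term (0 of all 34760 probe sets, with a smallest adjusted p of 0.9996 and 2.62% at an unadjusted p under 0.05). The AAV and BACHD effects were then compared in a fit over all 38 arrays, a test chosen after the values were seen. The 18Q effect was lower than the BACHD effect at 2 months for Nsdhl (difference -0.41, SE 0.11, adjusted p = 0.0334) and Dhcr7 (-0.33, SE 0.083, adjusted p = 0.0233), beside 1.65% of all probe sets called in either direction. The 79Q effect was lower than that of BACHD at 2 months for 5 members, Idi1 (-0.44), Fdft1 (-0.44), Sqle (-0.29), Nsdhl (-0.44) and Dhcr7 (-0.31), with adjusted p from 0.0133 to 0.0377, beside 1.52%. In the same order, the BACHD estimates of these 5 at 2 months were 0.021, 0.17, -0.016, 0.099 and 0.061, none of them called. For Fdft1, WT replicates 2 and 5 at 2 months (11.45 and 11.46) lay below the other WT mice (11.76 to 11.90). How far the difference depends on these 2 mice was not tested. Against BACHD at 10 months, Idi1 was lower in 79Q (-0.51, SE 0.13, adjusted p = 0.0436, beside 0.656% of all probe sets) and 0 members were called in 18Q, beside 0.9% of all probe sets. The models also differ in age, in the part of HTT expressed and in the injection, which cannot be told apart here. For the other members a difference between the models did not pass the threshold.

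**Figure D5:**
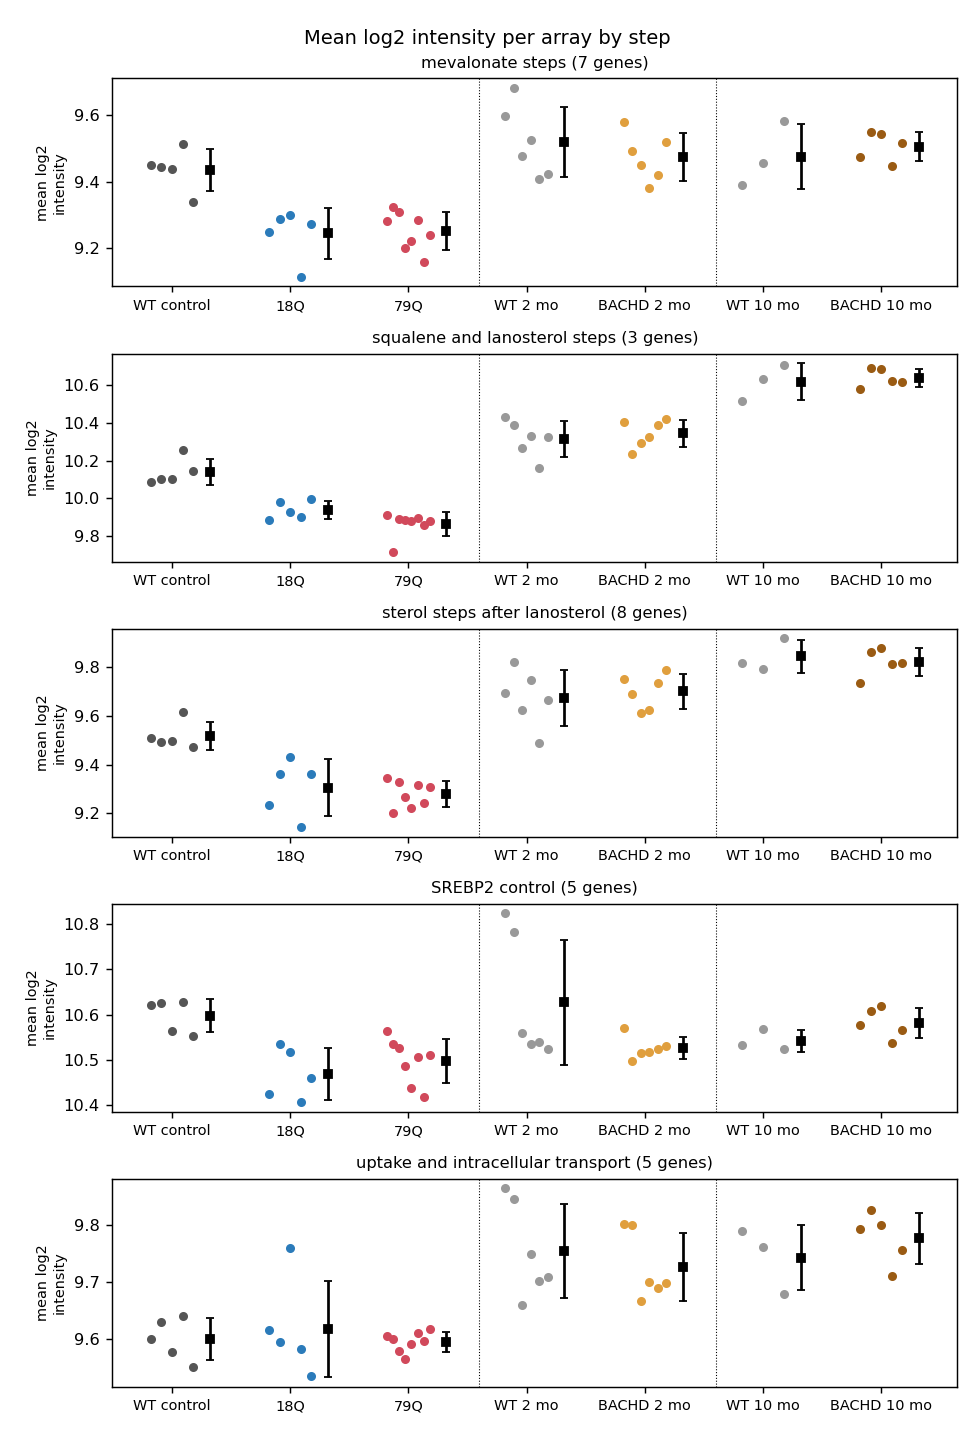
Mean log2 intensity per mouse (y axis) of the genes of each step in all 7 groups (x axis); dots are single arrays and squares with bars the mean ± SD, and dotted lines part the 3 sets of arrays treated as normalized separately, between which levels are not comparable. The 3 upper panels show 18Q and 79Q below WT control without overlap, the panel of SREBP2 control shows all 5 of the 18Q and 7 of the 8 79Q mice below WT, the panel of uptake and transport shows no such step, and BACHD and WT overlap at both ages.

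Within groups the enzymes varied together from mouse to mouse. After the group means were removed, the median correlation over the 153 pairs of the 18 enzymes was 0.37 in the 18 AAV arrays, 0.44 in the 12 arrays at 2 months and 0.53 in the 8 arrays at 10 months. Over all pairs of the 19937 symbols the median was 0.018, 0.17 and 0.032. These pairs cover symbols of every intensity and were not matched to the level of the enzymes. How much intensity contributes to the contrast was not tested. The steps after lanosterol had medians of 0.46, 0.46 and 0.50 over 28 pairs. The 10 pairs of SREBP2 control were at 0.053, 0.62 and -0.031, where the set at 2 months holds WT replicates 1 and 2, and the 10 pairs of uptake and transport were at -0.0034, 0.14 and 0.57. The values of a gene pair come from the same arrays and normalization, and genes are not independent replicates, so no p is given.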

How the data were processed

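RNA of the hypothalamus was measured on 38 arrays, 1 per mouse. The authors normalized the scans by RMA in R 4.1.1 with affy 1.70.0, and the deposited values are log2 intensities of 34760 probe sets. Pairs of arrays shared up to 9, 17 and 22 identical values within the AAV, 2 months and 10 months sets and 0 between them, and the sets were treated as normalized apart. The deposited values were used as they are, with no filter. Probe sets were named from the platform annotation (21640 with 1 symbol, 1321 with several, 11799 with no entry). Groups were compared with limma 3.58.1 in R 4.3.3 (lmFit, eBayes, Benjamini-Hochberg over all probe sets). 1 fit covered the 18 AAV arrays, each BACHD age had its own fit, and the age by genotype term used 20 arrays. Arrays give no counts, so precision is limited by the number of mice. The fits were tested on simulated data. Named genes were all members called in 18Q vs. WT or 79Q vs. WT and, for the other comparisons, the 3 with the smallest p in each direction; of related genes, those called or the 2 with the smallest p of a list. Alternatives were centring, quantile normalization, a filter on dim probe sets, an intensity trend, the replicate number as a block, other probe sets, fits of the compared groups alone, leaving out each mouse and, chosen after the values were seen, leaving out the 4 injected mice above WT in thalamic markers. The members, lists and tests were chosen with earlier results of these data known. Promoter sequences came from RefSeq (GRCm38.p6).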

Additional observations from a re-analysis of the deposited data

Results flagged for a closer look

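Of 168 sets of values (a member in a group of 4 to 10 mice), 8 held a mouse far from the others of its group, where chance flags about 1 in 20, or 8.4. Fdft1 was lowest in 79Q replicate 2 at 10.9669, below the next mouse at 11.2976. Cyp51 was highest in WT control replicate 5 at 9.56331, above 9.42544. Npc1 was highest in 18Q replicate 3 at 11.1712, above 10.8587. In BACHD at 2 months, replicate 1 was highest for Ggps1 at 10.1989 (next 10.1408) and for Lss at 9.19936 (next 9.00846), and replicate 2 was lowest for Srebf2 at 10.8179 (next 10.9806). In BACHD at 10 months, replicate 1 was lowest for Nsdhl at 10.6349 (next 10.7049) and replicate 3 was highest for Dhcr7 at 9.99897 (next 9.85099).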

How the results depend on the processing

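In 18Q vs. WT, 9 members were called (2.11% of all probe sets), and 12 with arrays centred on their median (2.3%), 10 after quantile normalization (2.21%), 12 without dim probe sets (3.83%), 12 with an intensity trend (2.35%), 9 with the probe set of lowest p (2.11%) and 2, Nsdhl and Dhcr7, when only the 10 arrays of both groups were fitted (1.65%). In 79Q vs. WT, 11 were called (2.07%), and 13 (2.38%), 9 (2.03%), 14 (4.40%), 12 (2.36%), 11 (2.07%) and 11 (2.42%) under these settings. Leaving out single mice gave 3 to 10 calls in 18Q vs. WT (1.36% to 3.25% of all probe sets) and 6 to 11 in 79Q vs. WT (1.26% to 2.33%), with the lowest counts of members without WT control replicate 5. Without the 4 mice above WT in thalamic markers, 7 were called in 18Q vs. WT (1.79%) and 7 in 79Q vs. WT (1.01%), and the cause was not tested. The other comparisons had 0 members called under every setting listed here that was run for them. All 507 values of the called genes under these settings and the block kept their direction. With the replicate number as a block, 6 members were called in 18Q vs. WT (1.60%) and 8 in 79Q vs. WT (1.16%), but the mice share only a number: deviations of same-numbered AAV mice correlated at -0.25 to 0.097, those at 2 months at -0.31 to 0.28 and those at 10 months at -0.16 to 0.092. The number of mice limits the size of change that could be called.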
